A study of Mus musculus with 20 samples.

Results

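C3aR-positive microglia of APP-KI mice were compared with C3aR-positive microglia of WT mice, in 3 libraries of each genotype out of the 20 libraries of the series. The 6 libraries were chosen by their labels alone, which name the genotype and the sort, and every gene listed was considered. All 6 mice were 9 months old, on a C57BL/6 background, and of a line in which both groups carried a Td-tomato reporter in the endogenous C3ar1 locus, made from a homozygous reporter C3ar1 fl/fl line, so that red cells are cells in which C3ar1 is transcribed. WT mice were littermates with their own App gene. APP-KI mice carried the APP NL-G-F knock-in, in which the endogenous App gene encodes a humanized Aβ sequence with the Swedish, Iberian and Arctic mutations, without a transgene promoter. No treatment is stated for either group. Brains were digested with papain, cells were gated as CD45mid and CD11b+ and then on Td-tomato, and total RNA of whole brain microglia was made into libraries. The labels give a replicate number and not the animal, so p-values measure the spread between these samples.

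Microglia are the resident phagocytes of the brain. Around Aβ plaques they take up material into endosomes, which mature into lysosomes, acid compartments kept at low pH by a proton pump (the V-ATPase) and filled with hydrolases. Phagocytes that change state also change how much protein, sterol and energy they make, which receptors they show on the surface, which cytokines and growth factors they release, and whether they divide. C3aR is the receptor of the complement fragment C3a, and these cells were sorted on its gene. The lists described here are whole families and pathways of these kinds, 62 in all, chosen to go beyond the hypoxia, lipid, reactive and homeostatic genes to which the study itself was directed, although 18 of them hold 1 to 4 of those genes (4 among cathepsins and cystatins).

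The values are read counts divided by the 75th percentile of each library and multiplied by 1 constant, called scaled values, not divided by gene length, so that levels are compared between libraries for 1 gene and not between genes. The libraries held 19962604 to 30388941 reads in WT and 13939559 to 23086997 in APP-KI, and the lowest, APP-KI replicate 3, also listed the most genes at 0 (6438 of 21326). C3ar1, on whose locus the cells were sorted, was at 70.98, 81.2 and 37.6 in WT and 383, 251 and 201 in APP-KI (log2 fold change 2.14, SE 0.30, adjusted p = 0.00100). By flow cytometry the study found modest C3aR on most WT microglia and a shift of that population to high C3aR in APP-KI. The sort on Td-tomato thus did not make the C3ar1 level equal between the groups. App, the gene changed by the knock-in, was at 359.7, 319.7 and 345 in WT and 504, 509 and 682 in APP-KI (log2 fold change 0.71, SE 0.14, adjusted p = 0.00590), counted on the mouse sequence. The summed level of 12 microglial markers lay between 28743.9 and 30852.0 in WT and between 20649.7 and 27897.4 in APP-KI, where 5 of the 12 were lower. Markers of other cells were far below these sums but moved with genotype. Border macrophage markers (5 of 8 lower) summed to 491 to 726 in WT and 186 to 421 in APP-KI, oligodendrocyte markers (2 of 7 tested higher) to 153 to 196 and 296 to 498, endothelial markers (1 of 7 tested higher and 1 lower) to 62.6 to 126 and 197 to 353, and astrocyte markers (1 of 7 tested higher and 1 lower) to 304 to 406 and 223 to 284. Single members carried the endothelial and astrocyte differences, and the oligodendrocyte difference in part. Without Flt1 the endothelial sum was lower in APP-KI (51.9 to 103 in WT and 39.7 to 41.2), and without Slc1a3 the astrocyte sums overlapped (28.6 to 80.5 and 16.6 to 90.3). Without Cspg4 the oligodendrocyte sum was still higher in APP-KI without overlap, at 143 to 189 in WT and 194 to 214 in APP-KI. Monocyte and neutrophil markers overlapped, from 31.3 to 251 in WT and from 48.1 to 134 in APP-KI. The summed level of 12 genes raised by warm dissociation overlapped too, from 3664.2 to 5192.2 and from 3200.0 to 4286.2. Single members of these 12 moved in both directions, with 2 higher and 3 lower. Atf3, for example, was at 213, 113 and 140 in WT and 597, 472 and 571 in APP-KI. Of 4 Y-linked genes, Kdm5d was at 10.6 in WT replicate 2, where the other 3 were at 0, and none was above 0.0356 in the other 5 libraries. The part of other cells in the results below was not tested, beyond the fit without each library, and in bulk RNA fewer cells of a type and less RNA per cell cannot be told apart.

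After genes whose scaled values averaged under 1 were set aside, 12315 were tested. Of these, 1602 (13%) were higher and 1195 (9.7%) lower in APP-KI at an adjusted p under 0.05. The test throughout is limma on log2(scaled value + 1) with Benjamini-Hochberg adjustment over all genes tested, and fold changes of low genes are understated by the added 1. Values given in threes are those of replicates 1, 2 and 3, WT before APP-KI, and for every called gene named with them the groups did not overlap, which was a condition for naming most of them. Among the 12315 tested genes, called or not, 2194 lay higher and 3167 lower in APP-KI without overlap of the groups. Over all genes the median was -0.17 on the log2 scale. Median ratio scaling, which sets the bulk of genes equal, moved it to -0.03 and the split to 1846 higher and 605 lower, so list medians are read against -0.17 and small falls depend on the scaling. Under it 38 of the 62 lists had fewer genes called lower and none had more. The count of lower genes also dropped to 647, 616 and 608 without WT replicate 1, 2 and 3, respectively. The 49 list counts of 1 to 4 genes changed in 177 of the 294 cases of a list and a left-out library, and are given as descriptions. Lists of the lysosome, the cytosolic ribosome, oxidative phosphorylation, cholesterol synthesis, class I antigen presentation, interferon response, growth factors and mitosis had medians of 0.63 or more with over 40% of tested members called higher, against 13% of all genes. The medians of Ms4a genes, chemokine receptors and zinc finger protein genes lay at -0.46 or below.

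**Figure D1:**
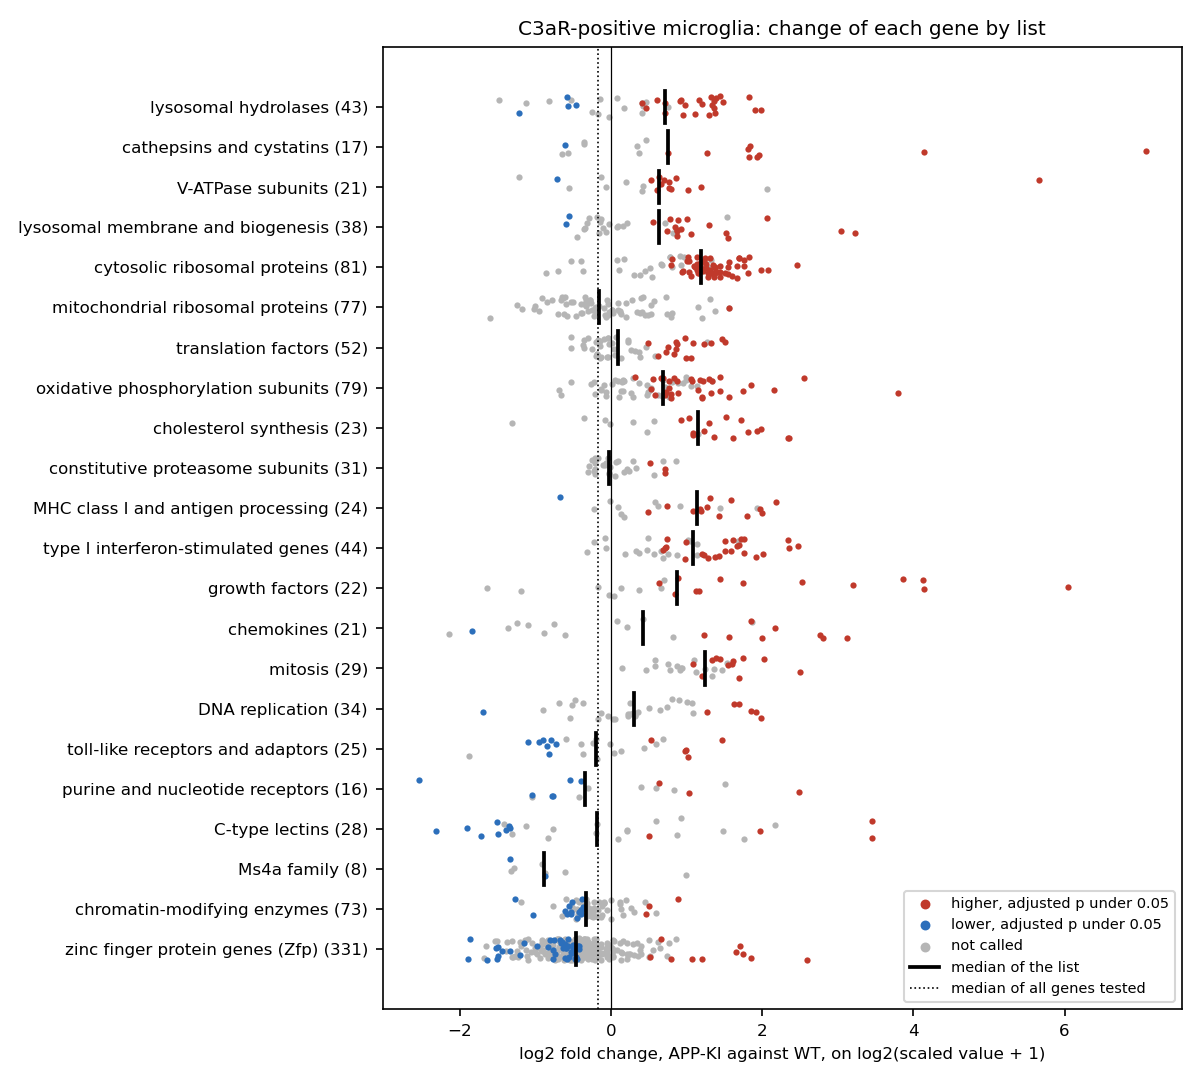
Log2 fold change of each tested gene (horizontal axis, APP-KI against WT, on log2(scaled value + 1)) for 22 of the lists (rows, number of genes tested in parentheses), with genes called higher in red, called lower in blue and not called in grey. Black bars mark list medians, such as 1.19 for cytosolic ribosomal proteins and -0.46 for zinc finger protein genes, and the dotted line marks the median of all genes, -0.17.

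The list shifts were shared by the libraries of a group, although not equally. Relative to each gene's WT mean, the median of the cytosolic ribosomal protein genes was 1.23, 1.07 and 1.30 in APP-KI replicates 1, 2 and 3, against values between -0.02 and 0.03 in WT. The cholesterol list was at 1.18, 1.28 and 1.39 in the APP-KI libraries and the lysosomal hydrolases were at 0.58, 0.68 and 0.85. Mitosis genes were spread more, at 0.99, 1.77 and 0.84, and interferon-stimulated genes at 0.71, 1.50 and 1.12 against -0.38 to 0.25 in WT. The Ms4a family overlapped in part, with APP-KI replicate 1 at -0.21 and WT replicate 3 at -0.41.

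**Figure D2:**
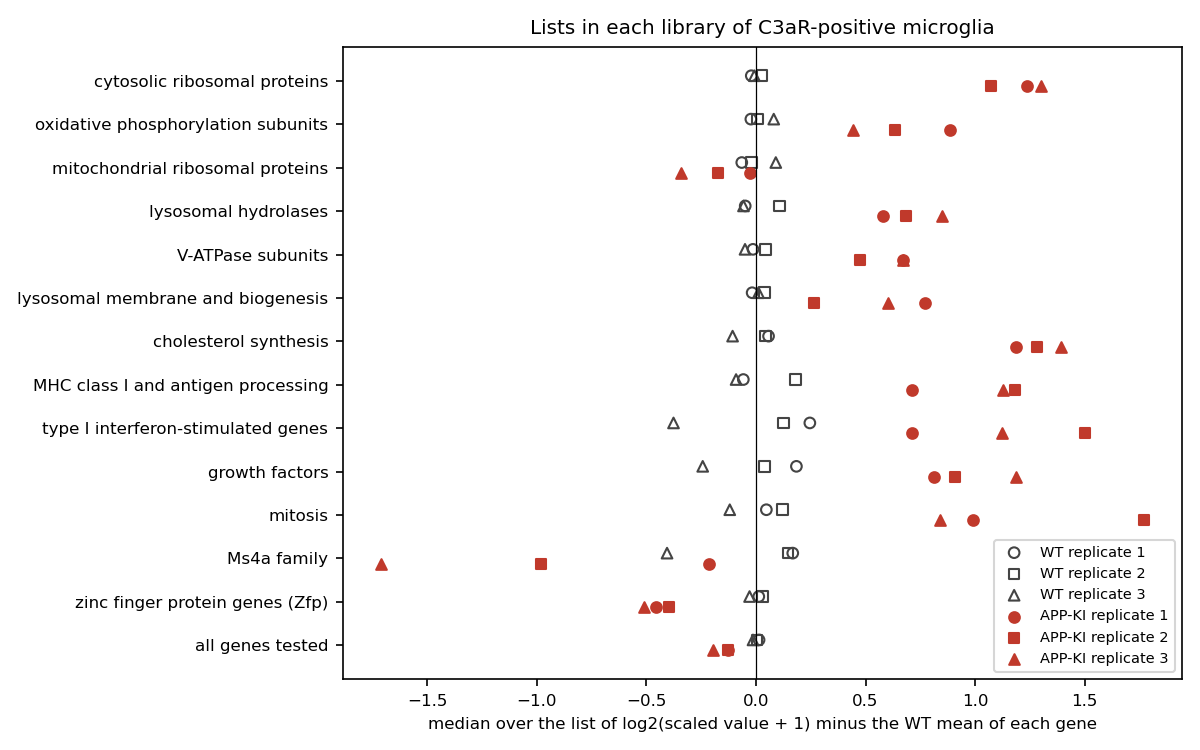
Median over each list (rows) of log2(scaled value + 1) minus the gene's WT mean (horizontal axis) in the 3 WT (open symbols) and 3 APP-KI (filled symbols) libraries, with symbol shape for the replicate number. APP-KI libraries lie to the right of WT libraries for all lists shown from cytosolic ribosomal proteins to mitosis except mitochondrial ribosomal proteins, and all genes together lie at -0.13, -0.13 and -0.20 in APP-KI.

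Genes of the lysosome were higher in APP-KI in each of the 4 lists that cover it. Of 43 tested hydrolases 24 were higher and 4 lower (median log2 fold change 0.72), of 21 V-ATPase subunits 12 were higher and 1 lower (0.63), of 38 genes of the lysosomal membrane and its biogenesis 17 were higher and 2 lower (0.64), and of 17 cathepsins and cystatins 9 were higher and 1 lower (0.76). The highest rise of a pump subunit was that of Atp6v0d2 (chr4:19876841-19922605, minus strand, GRCm38), the d2 isoform of a V0 subunit, known from osteoclasts and macrophages. Its scaled values were 0.354, 0.684 and 0.107 in WT and 33.2, 59.9 and 157 in APP-KI (log2 fold change 5.67, SE 0.53, adjusted p = 0.000148). The gene was thus at or near the counting limit in WT and present in every APP-KI library. Atp6v1a, the catalytic A subunit, was at 71.1, 68.2 and 66.03 in WT and 145, 136 and 201 in APP-KI (log2 fold change 1.20, SE 0.16, adjusted p = 0.000754). Atp6v0a2, 1 of the a isoforms of the V0 part, moved the other way, from 232, 243 and 237 to 146, 141 and 147 (log2 fold change -0.71, SE 0.10, adjusted p = 0.00113), without overlap of the groups.

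Among hydrolases, Gla, which encodes α-galactosidase A, was at 14.4, 9.86 and 9.50 in WT and 52.2, 37.2 and 52.2 in APP-KI (log2 fold change 1.98, SE 0.25, adjusted p = 0.000657). Glb1, the lysosomal β-galactosidase, was at 38.9, 45.6 and 36.6 in WT and 105, 144 and 236 in APP-KI (log2 fold change 1.90, SE 0.25, adjusted p = 0.000827). Both enzymes remove galactose from glycolipids and glycoproteins, and in both genes the lowest APP-KI library was over the highest WT library. Sgsh, which encodes the sulfamidase of heparan sulfate breakdown, fell from 74.8, 88.2 and 68.2 to 42.7, 32.96 and 23.9 (log2 fold change -1.22, SE 0.22, adjusted p = 0.00353). Hpse, the heparanase that cuts heparan sulfate chains, was among the 15 largest rises outside the study's lists, at 3.83, 1.51 and 1.10 in WT and 43.3, 129 and 156 in APP-KI (log2 fold change 5.04, SE 0.50, adjusted p = 0.000195). Ctse, the aspartic protease cathepsin E, went from 6.01, 1.90 and 1.71 to 76.2, 29.5 and 128 (log2 fold change 4.14, SE 0.54, adjusted p = 0.000763).

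In the lysosomal membrane, Lamp1, its major glycoprotein, was at 611, 618 and 486 in WT and 1425, 1307 and 1483 in APP-KI (log2 fold change 1.30, SE 0.14, adjusted p = 0.000241). Rragd, the small GTPase RagD that brings mTORC1 to the lysosome, went from 3.09, 3.91 and 3.60 to 42.9, 31.2 and 52.4 (log2 fold change 3.23, SE 0.31, adjusted p = 0.000152). Mcoln3, a cation channel of endosomes and lysosomes, had a log2 fold change of 3.04 (SE 0.49, adjusted p = 0.00220). The 3 related transcription factors that drive lysosomal genes did not move alike at the RNA level. Mitf rose from 96, 93.4 and 90.8 to 188, 138 and 188 (log2 fold change 0.85, SE 0.14, adjusted p = 0.00258), whereas Tfeb was at 79.99, 90.5 and 103 in WT and 79.2, 61.7 and 59.9 in APP-KI (adjusted p = 0.0686) and Tfe3 at 192, 183 and 235 in WT and 262, 161 and 184 in APP-KI (adjusted p = 0.920).

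These factors bind the E-box CACGTG, which reads the same on both strands. In the RefSeq promoter windows (250 bases before the start, GRCm38.p6) it was found in 6.02% of all 32851 windows and in 9.88% of 9849 tested genes with a window, and in 10 of 33 lysosomal membrane and biogenesis genes, 6 of them among the 16 called higher. For the hydrolases only 34 of 43 genes had a window, under 80%, so no share is given for that list. The windows of 3 genes that rose and of Sgsh, which fell, are shown 5′ to 3′ on the strand of the gene, with each CACGTG in capitals. Lamp1 held 4 copies within 61 bases of the start, Gla 2 copies, and Glb1 and Sgsh 1 each, so a copy was present in a gene that fell as well. A match describes letters and is no evidence of binding.
Lamp1 (chr8:13158911-13159160, plus strand): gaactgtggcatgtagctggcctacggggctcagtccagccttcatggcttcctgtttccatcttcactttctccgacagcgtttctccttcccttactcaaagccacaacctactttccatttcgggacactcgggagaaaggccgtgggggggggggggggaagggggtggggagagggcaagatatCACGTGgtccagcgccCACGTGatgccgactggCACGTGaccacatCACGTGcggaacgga
Gla (chrX:134601006-134601255, minus strand): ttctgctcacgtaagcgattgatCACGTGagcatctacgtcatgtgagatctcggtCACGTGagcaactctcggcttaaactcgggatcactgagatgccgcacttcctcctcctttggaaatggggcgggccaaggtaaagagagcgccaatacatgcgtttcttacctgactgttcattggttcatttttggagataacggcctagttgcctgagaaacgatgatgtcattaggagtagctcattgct
Glb1 (chr9:114400828-114401077, plus strand): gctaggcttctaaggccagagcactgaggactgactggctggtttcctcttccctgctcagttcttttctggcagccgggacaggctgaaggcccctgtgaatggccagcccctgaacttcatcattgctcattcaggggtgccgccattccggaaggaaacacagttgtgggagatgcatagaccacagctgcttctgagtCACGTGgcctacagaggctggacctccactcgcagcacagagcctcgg
Sgsh (chr11:119355511-119355760, minus strand): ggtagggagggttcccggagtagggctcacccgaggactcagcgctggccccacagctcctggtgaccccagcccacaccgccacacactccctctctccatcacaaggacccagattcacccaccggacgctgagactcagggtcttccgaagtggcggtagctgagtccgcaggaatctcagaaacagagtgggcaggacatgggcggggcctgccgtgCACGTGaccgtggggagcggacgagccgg

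Genes of the cytosolic ribosome were higher in APP-KI, and those of the mitochondrial ribosome were not. Of 81 tested cytosolic ribosomal protein genes 55 were higher and none lower in the limma test, at a median of 1.19 on the log2 scale with a range from -0.86 to 2.46. Of 77 mitochondrial ribosomal protein genes 1 was higher, Mrpl54, and none was lower, with a median of -0.15. Rpl36 was at 7.78, 8.89 and 10.2 in WT and 64.9, 25.1 and 40.9 in APP-KI (log2 fold change 2.07, SE 0.34, adjusted p = 0.00232). Rpl10 was not called and its groups overlapped, at 20.2, 12.9 and 15.98 in WT and 5.63, 10.6 and 14.2 in APP-KI. Translation factors stood between the ribosome lists, with 16 of 52 higher, none lower and a median of 0.09. Eef1a1, the elongation factor that brings aminoacyl-tRNA to the ribosome, was at 1051, 1108 and 1034 in WT and 2844, 2563 and 3494 in APP-KI (log2 fold change 1.47, SE 0.16, adjusted p = 0.000262). Eif3f, a subunit of initiation factor 3, went from 55.04, 65.5 and 63.3 to 153, 143 and 244 (log2 fold change 1.50, SE 0.19, adjusted p = 0.000727). Of 19 aminoacyl-tRNA synthetases 2 were higher (10.5%, against 13% of all genes), Eprs and Sars, at log2 fold changes of 0.76 and 0.64.

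Ribosomal protein genes have many processed copies in the genome, so the counting of their reads is uncertain. Of the 81, 60 have at least 1 annotated pseudogene of the same name, and 38 of these were called higher, with a median of 1.16. Of the 21 without one, 17 were higher, with a median of 1.32. Transcripts of this list are also short, with a median length of 914 bases, and the 2429 shortest of all tested genes (up to 1829 bases) moved a little differently from the rest (median -0.04, 16.3% higher and 4.32% lower, against -0.20, 11.5% and 13.6% in the 2427 longest). Genes outside the lists, weighted to the same 5 bins of length, had a median of -0.12 with 12.1% called higher. Mitochondrial ribosomal protein genes, of median length 1339 bases, had 64.9% of their members among the shortest genes, against 86.4% of the cytosolic list. The part of length in these results was not tested.

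**Figure D3:**
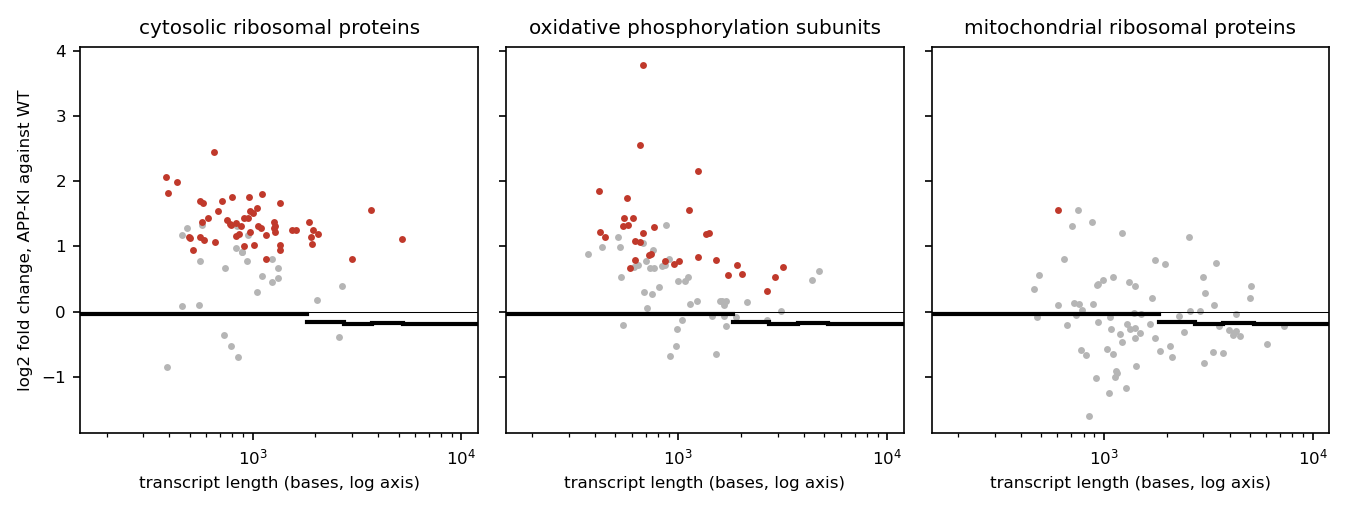
Log2 fold change (vertical axis) against transcript length in bases (horizontal log axis) for 3 lists, with genes called higher in red and not called in grey, and with black lines for the median of all tested genes in each of 5 bins of length. Over each whole list, cytosolic ribosomal proteins, oxidative phosphorylation subunits and mitochondrial ribosomal proteins have median changes of 1.19, 0.69 and -0.15 and median lengths of 914, 875 and 1339 bases.

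Subunits of the mitochondrial respiratory chain and the ATP synthase were higher in part. Of 79 tested, 33 were higher and none lower, with a median of 0.69, and the count was 20 without WT replicate 1, WT replicate 2 or APP-KI replicate 1, all with none lower. The largest rise was in Cox6a2, the isoform of a complex IV subunit known from heart and skeletal muscle, at 2.60, 1.47 and 0.712 in WT and 24.7, 42.1 and 35.6 in APP-KI (log2 fold change 3.79, SE 0.40, adjusted p = 0.000262). Ndufb6, an accessory subunit of complex I, went from 0.546, 0.537 and 0.605 to 8.12, 8.59 and 7.78 (log2 fold change 2.55, SE 0.43, adjusted p = 0.00264). The median length of this list was 875 bases. In the tricarboxylic acid cycle 4 of 18 genes were higher and 1 was lower, namely Idh2, the mitochondrial NADP-dependent isocitrate dehydrogenase, which fell from 138, 152 and 144 to 85.7, 89.1 and 89.9 (log2 fold change -0.71, SE 0.11, adjusted p = 0.00186). The higher calls of this list went from 4 to 0 if WT replicate 2 or APP-KI replicate 2 was left out, and to 1 if WT replicate 1 or WT replicate 3 was.

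Cholesterol synthesis was the metabolic list with the highest share of calls, 15 of 23 genes higher and none lower, at a median of 1.15, with 12 to 14 higher when 1 library was left out.

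Several enzymes that feed carbon and amino groups into synthesis were higher. Psat1 (chr19:15904678-15947337, minus strand, GRCm38), the aminotransferase of serine synthesis, was at 14.8, 16.1 and 12.2 in WT and 117, 116 and 164 in APP-KI (log2 fold change 3.11, SE 0.19, adjusted p = 1.69e-05), and Got1, the cytosolic aspartate aminotransferase, went from 33.4, 32.9 and 29.9 to 108, 87.3 and 142 (log2 fold change 1.75, SE 0.18, adjusted p = 0.000241). Phgdh, the first enzyme of the same serine pathway, was not called and overlapped, at 6.37, 7.62 and 24.5 in WT and 14.4, 20.99 and 2.99 in APP-KI (adjusted p = 0.934). Of 16 genes of serine, one-carbon and proline synthesis 5 were higher and none lower, and 2 were higher without WT replicate 1, WT replicate 3 or APP-KI replicate 2. Of 16 glycolysis genes outside the hypoxia module 6 were higher, a count that held without any 1 library, and 2 were lower, which fell to 1 or 0 in all but 1 of the left-out sets (2 without APP-KI replicate 3). Tpi1, triosephosphate isomerase, went from 41.1, 44.7 and 40.4 to 121, 124 and 199 (log2 fold change 1.75, SE 0.19, adjusted p = 0.000293), and Pkm, pyruvate kinase, from 228, 242 and 219 to 589, 677 and 897 (log2 fold change 1.62, SE 0.15, adjusted p = 0.000151). Eno2, the neuron-enriched enolase, had a log2 fold change of 2.89 (SE 0.50, adjusted p = 0.00314), and Tkt, transketolase of the pentose phosphate pathway, 0.98 (SE 0.19, adjusted p = 0.00608).

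Genes of antigen presentation were higher for class I and less clearly so for class II. Of 24 class I and antigen processing genes 13 were higher and 1 lower, at a median of 1.13. Nlrc5, the transactivator of class I genes, was at 30.8, 33.1 and 17.5 in WT and 86.7, 116 and 118 in APP-KI (log2 fold change 1.98, SE 0.24, adjusted p = 0.000533). Psmb8, a catalytic subunit of the immunoproteasome, was at 47.8, 74.9 and 58.5 in WT and 143, 112 and 158 in APP-KI (log2 fold change 1.19, SE 0.19, adjusted p = 0.00200), while of 31 subunits of the constitutive proteasome 3 were higher and none lower, with a median of -0.02 (0.12 under median ratio scaling). H2-Q7 and H2-Q6, near-identical class I genes whose reads may be shared, had log2 fold changes of 2.19 (SE 0.40, adjusted p = 0.00439) and 2.00 (SE 0.40, adjusted p = 0.00688). In class II 2 of 10 genes were higher and none lower, at a median of 0.87, and 5 were higher without WT replicate 2 or APP-KI replicate 1. Cd74, the invariant chain, was at 702, 1322 and 731 in WT and 1484, 4569 and 3799 in APP-KI (log2 fold change 1.75, SE 0.40, adjusted p = 0.0119). H2-Aa, an α chain, overlapped between the groups, at 198, 429.7 and 242 in WT and 305, 903 and 775 in APP-KI (adjusted p = 0.0664), with WT replicate 2 over APP-KI replicate 1.

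Interferon-stimulated genes were higher in APP-KI, with 25 of 44 called higher, none lower, and a median of 1.09. This count moved with single libraries, with 16 higher without WT replicate 1 or APP-KI replicate 3, 12 without WT replicate 3 and 11 without APP-KI replicate 2. Zbp1, a sensor of Z-form nucleic acid, was at 3.63, 2.59 and 2.10 in WT and 13.6, 26.8 and 20.9 in APP-KI (log2 fold change 2.48, SE 0.39, adjusted p = 0.00187). Rsad2, which encodes the antiviral enzyme viperin, was at 1.96, 1.32 and 0.427 in WT and 6.82, 16.1 and 8.81 in APP-KI (log2 fold change 2.35, SE 0.49, adjusted p = 0.00844). In both genes APP-KI replicate 2 was the highest library, and all APP-KI libraries were over all WT libraries. Irf7, the transcription factor that amplifies the response, was at 11.4, 11.3 and 6.58 in WT and 14.6, 28.8 and 19.7 in APP-KI (adjusted p = 0.0604). Ifit3 was at 10.4, 7.52 and 4.56 in WT and 15.2, 25.3 and 21.3 in APP-KI (log2 fold change 1.38, SE 0.36, adjusted p = 0.0228), and its call was lost without WT replicate 2, WT replicate 3, APP-KI replicate 2 or APP-KI replicate 3.

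The core of the interferon-stimulated response element, GAAANNGAA on either strand, was found in 7.13% of all promoter windows and in 7.57% of tested genes with a window. Only 34 of the 44 genes of this list had a window, under 80%, so no share is given. The windows of Rsad2 and Ifit3 held 1 and 3 matches, shown in capitals as they read on the strand of the gene, 5′ to 3′ (RefSeq, GRCm38.p6).
Rsad2 (chr12:26456453-26456702, minus strand): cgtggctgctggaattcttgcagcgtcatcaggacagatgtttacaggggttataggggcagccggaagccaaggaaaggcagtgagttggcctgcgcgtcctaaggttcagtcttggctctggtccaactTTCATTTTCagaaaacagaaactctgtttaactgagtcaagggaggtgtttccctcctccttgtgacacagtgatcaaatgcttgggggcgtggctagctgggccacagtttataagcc
Ifit3 (chr19:34583279-34583528, plus strand): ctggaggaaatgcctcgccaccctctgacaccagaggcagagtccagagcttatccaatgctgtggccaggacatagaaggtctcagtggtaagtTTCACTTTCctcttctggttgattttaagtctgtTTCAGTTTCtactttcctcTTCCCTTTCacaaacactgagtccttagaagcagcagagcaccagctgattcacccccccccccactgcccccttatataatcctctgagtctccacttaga

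Growth factors were among the lists with the most calls, 13 of 22 higher and none lower, at a median of 0.87, and 12 or 13 were higher without any 1 library. Spp1 (chr5:104435118-104441050, plus strand, GRCm38), the secreted phosphoprotein osteopontin, was at 30.2, 12.1 and 14.5 in WT and 909.7, 1102 and 1786 in APP-KI (log2 fold change 6.04, SE 0.32, adjusted p = 1.49e-05). Igf1 (chr10:87858265-87937042, plus strand), insulin-like growth factor 1, was at 23.9, 16.2 and 12.3 in WT and 239, 220.3 and 328 in APP-KI (log2 fold change 3.86, SE 0.24, adjusted p = 1.64e-05). Csf1 (chr3:107741048-107760469, minus strand), a ligand of the receptor on which microglia depend, was at 76.7, 52.5 and 40.5 in WT and 660.0, 903 and 1518 in APP-KI (log2 fold change 4.12, SE 0.30, adjusted p = 3.50e-05), while Csf1r, that receptor, was at 8305, 8679.9 and 8269 in WT and 4917, 5682 and 6465 in APP-KI (log2 fold change -0.57, adjusted p = 0.0849). The ligand was thus at over 8 times its highest WT value in each APP-KI library, and the receptor did not pass the test. Fgf1, a fibroblast growth factor, went from 2.15, 2.15 and 0.890 to 29.6, 40.98 and 78.9 (log2 fold change 4.14, SE 0.43, adjusted p = 0.000228).

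**Figure D4:**
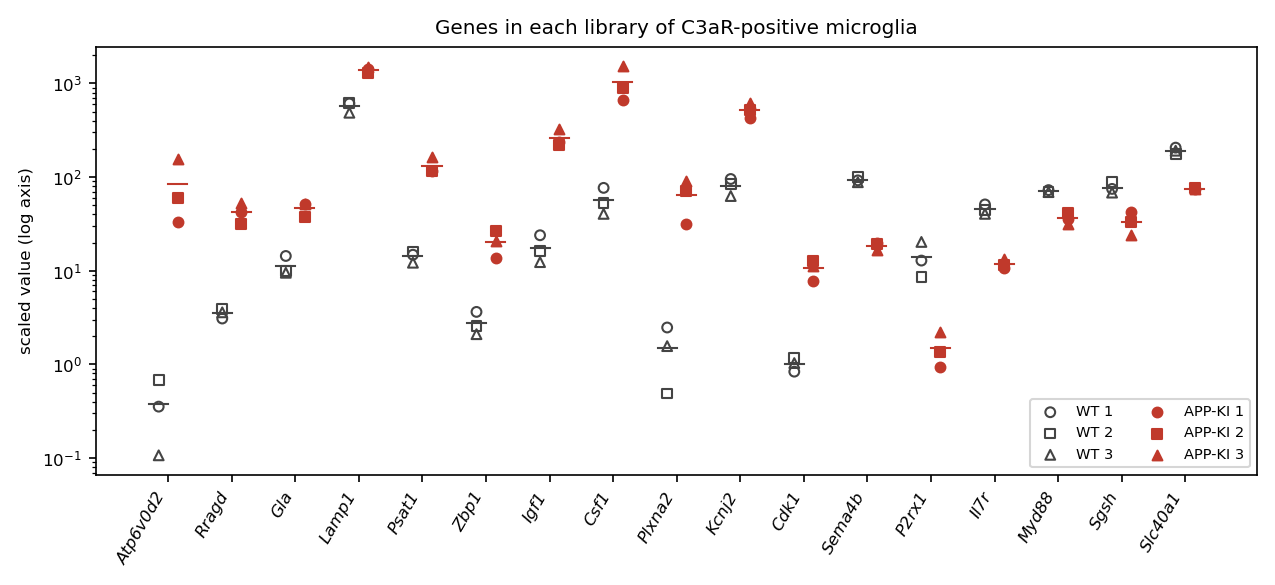
Scaled values (vertical log axis) of 17 named genes in the 3 WT (open, grey) and 3 APP-KI (filled, red) libraries of C3aR-positive microglia, with symbol shape for the replicate number and lines at the group means. The first 11 genes lie higher in every APP-KI library and the last 6, from Sema4b to Slc40a1, lie lower. No overlap of the groups was a condition for naming most genes.

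Of 21 tested chemokines 8 were higher and 1 lower. Ccl3 and Ccl4 were at 59.1, 35.5 and 29.4 in WT and 251, 262 and 314 in APP-KI (log2 fold change 2.76, SE 0.23, adjusted p = 6.75e-05) and at 40.2, 29.5 and 25.9 in WT and 123, 119 and 144 in APP-KI (log2 fold change 2.00, SE 0.18, adjusted p = 0.000112). Ccl6 went from 106, 92.6 and 82.2 to 532, 690.2 and 766 (log2 fold change 2.80, SE 0.16, adjusted p = 1.49e-05), and Cxcl16, a membrane-bound chemokine, from 68.2, 86.1 and 73.8 to 156, 163 and 223 (log2 fold change 1.23, SE 0.16, adjusted p = 0.000751). Of 16 chemokine receptors 2 were higher, Cxcr4 (2.32) and the atypical receptor Ccrl2 (1.84), and 2 lower. These shares, 12.5% each, were near the 13% and 9.7% of all genes. The list median was -0.72, with 12 of 16 members below 0.

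Toll-like receptors and their adaptors were divided, with 5 of 25 higher and 7 lower (5 and 5 under median ratio scaling) at a median of -0.20. Tlr2, which recognises lipoproteins, rose from 96.3, 81.2 and 72.2 to 199.8, 208 and 297 (log2 fold change 1.47, SE 0.17, adjusted p = 0.000412), and its coreceptor Cd14 from 183, 208 and 196 to 397, 354 and 454 (log2 fold change 1.02, SE 0.12, adjusted p = 0.000470). Tlr4, the receptor of lipopolysaccharide, fell from 95.3, 99.1 and 82.3 to 55.6, 49.6 and 61.6 (log2 fold change -0.72, SE 0.14, adjusted p = 0.00638). Myd88, the adaptor that most of these receptors use, fell from 72.6, 69.4 and 69.1 to 35.6, 41.7 and 31.4 (log2 fold change -0.95, SE 0.16, adjusted p = 0.00246), and Tlr5, the flagellin receptor, had a log2 fold change of -1.10 (SE 0.21, adjusted p = 0.00582). These 3 falls are over 0.5 on the log2 scale below the shift of all genes. Among 32 genes of NF-κB, inflammasomes and cytokines 8 were higher and 6 lower, and these counts went down to 3 higher without WT replicate 2 or WT replicate 3 and to 2 lower without WT replicate 3. Il1b, the cytokine interleukin-1β, was at 29.1, 24.5 and 33.3 in WT and 62.5, 145 and 165 in APP-KI (log2 fold change 1.96, SE 0.32, adjusted p = 0.00231), and Il1rn, its natural antagonist, had a log2 fold change of 1.72 (SE 0.40, adjusted p = 0.0130). C3, the complement component from which the C3aR ligand C3a is cut, rose from 21.4, 18.4 and 13.6 to 43.6, 132 and 82.1 (log2 fold change 2.09, SE 0.35, adjusted p = 0.00273), and C1qa was at 1441, 2498 and 2316 in WT and 3006, 1975 and 5341 in APP-KI (adjusted p = 0.199), with overlap.

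Surface receptors changed in both directions within nearly every family, as did genes at large (13% higher and 9.7% lower). In the Siglec, Cd300, Lilr and Pir families 7 of 24 were higher and 6 lower, the latter 2 without WT replicate 2 and 3 without WT replicate 3. Siglece, an inhibitory receptor for sialic acid, fell from 51.2, 60.3 and 57.9 to 18.04, 15.4 and 16.8 (log2 fold change -1.70, SE 0.18, adjusted p = 0.000276), and Cd33, another such receptor, from 718, 699 and 656 to 479, 506 and 456 (log2 fold change -0.52, SE 0.11, adjusted p = 0.00792). Cd300lf, a lipid-binding receptor, rose from 6.46, 15.3 and 8.40 to 43.2, 58.9 and 52.4 (log2 fold change 2.31, SE 0.31, adjusted p = 0.000818). Of 28 C-type lectins 4 were higher and 8 lower, the latter 4 without WT replicate 2 or APP-KI replicate 2. Clec1a was at 0.193, 0.391 and 0.463 in WT and 9.10, 15.1 and 18.3 in APP-KI (log2 fold change 3.45, SE 0.45, adjusted p = 0.000746). Cd209a, which is also known from border macrophages and dendritic cells, was at 36.6, 17.8 and 13.3 in WT and 6.77, 2.04 and 2.52 in APP-KI (log2 fold change -2.31, SE 0.49, adjusted p = 0.00913), and it fell together with the border macrophage markers. Stab1, a scavenger receptor of macrophages, fell from 1240.5, 1493 and 1369 to 584, 453 and 399 (log2 fold change -1.53, SE 0.16, adjusted p = 0.000228), and Cd68, a glycoprotein of late endosomes, rose from 418, 435 and 459 to 1110.2, 1028 and 1610.3 (log2 fold change 1.48, SE 0.17, adjusted p = 0.000343). Of 8 Ms4a genes none was higher and 2 were lower, at a median of -0.89. Ms4a6b was at 39.4, 51.3 and 43.1 in WT and 20.9, 18.5 and 12.4 in APP-KI (log2 fold change -1.34, SE 0.24, adjusted p = 0.00376), and without APP-KI replicate 1, the library nearest to WT, 5 were lower.

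Purine receptors, with which microglia sense extracellular ATP, ADP and adenosine, included 3 higher and 6 lower of 16, or 3 and 3 under median ratio scaling. P2rx1, an ATP-gated channel, was at 12.8, 8.64 and 20.3 in WT and 0.930, 1.34 and 2.20 in APP-KI (log2 fold change -2.54, SE 0.45, adjusted p = 0.00375). P2ry13, an ADP receptor, fell from 709, 677 and 594 to 370.0, 309.9 and 490.1 (log2 fold change -0.78, SE 0.17, adjusted p = 0.00911), whereas the channel P2rx4 rose from 90.4, 83.8 and 103 to 217, 159 and 196 (log2 fold change 1.03, SE 0.14, adjusted p = 0.00104) and the adenosine receptor Adora1 from 2.51, 1.66 and 2.63 to 13.8, 22.8 and 15.9 (log2 fold change 2.48, SE 0.38, adjusted p = 0.00169). Of 68 other G protein-coupled receptors 9 were higher (13.2%, against 13% of all genes) and 12 lower (17.65%, against 9.7%). Hcar2, a receptor of hydroxycarboxylic acids, was at 9.36, 8.69 and 5.98 in WT and 58.8, 58.8 and 77.99 in APP-KI (log2 fold change 2.88, SE 0.25, adjusted p = 8.26e-05), and Gpr84, a receptor of medium-chain fatty acids, at 11.1, 10.6 and 5.38 in WT and 42.9, 39.4 and 46.7 in APP-KI (log2 fold change 2.19, SE 0.29, adjusted p = 0.000841).

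Of 36 interleukin and interferon receptors 12 were higher and 8 lower, with 7 higher without WT replicate 1 or WT replicate 3. Il7r, the α chain of the interleukin-7 receptor, fell from 51.05, 44.9 and 40.5 to 10.7, 11.5 and 13.3 (log2 fold change -1.86, SE 0.22, adjusted p = 0.000401). Il3ra and Il1r1 rose from values between 0.819 and 2.93 in WT, to 23.7, 25.9 and 26.3 (log2 fold change 3.19, SE 0.39, adjusted p = 0.000554) and to 20.1, 18.5 and 27.6 (log2 fold change 2.89, SE 0.37, adjusted p = 0.000686). Kinases that act below these and Fc receptors were divided too. Fgr, a kinase of the Src family, was at 17.5, 23.6 and 17.98 in WT and 84.7, 96.1 and 88.9 in APP-KI (log2 fold change 2.15, SE 0.17, adjusted p = 6.45e-05), and Syk, the kinase that docks on ITAM receptors, fell from 467, 519 and 535 to 341, 300.4 and 309.5 (log2 fold change -0.68, SE 0.11, adjusted p = 0.00242). Of 28 genes of the TGF-β pathway 2 were higher (7.14%) and 3 lower (10.7%), against 13% and 9.7% of all genes. Under median ratio scaling these counts were 2 and 1. Tgfbr2 was at 0.85 (SE 0.17, adjusted p = 0.00604) and Eng, a coreceptor, at -0.93 (SE 0.13, adjusted p = 0.00112) on the log2 scale.

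Among genes of adhesion, matrix and guidance, single members changed far more than their families. Plxna2 (chr1:194618218-194816869, plus strand, GRCm38), a plexin through which class 6 semaphorins signal, was at 2.48, 0.488 and 1.57 in WT and 31.9, 70.7 and 89.8 in APP-KI (log2 fold change 4.66, SE 0.47, adjusted p = 0.000207). Sema4b (chr7:80186841-80226527, plus strand) fell from 92.3, 100.4 and 88.1 to 19.8, 19.3 and 16.6 (log2 fold change -2.27, SE 0.16, adjusted p = 3.03e-05), and Sema6d from 67.7, 49.4 and 59.5 to 29.1, 20.9 and 16.3 (log2 fold change -1.40, SE 0.23, adjusted p = 0.00271). Nrp1, a coreceptor of semaphorins and growth factors, rose from 249, 247 and 206 to 529, 641 and 899 (log2 fold change 1.53, SE 0.18, adjusted p = 0.000476). Over the family 7 of 26 genes were higher and 5 lower, the latter 3 without any 1 of WT replicates 1 and 2 and APP-KI replicates 2 and 3. Cspg4, the proteoglycan NG2 that is also a marker of oligodendrocyte precursors and pericytes, was at 9.58, 6.88 and 8.83 in WT and 101, 180.1 and 284 in APP-KI (log2 fold change 4.22, SE 0.33, adjusted p = 5.42e-05), and Col6a3, a chain of collagen VI, at 234, 216 and 119 in WT and 67.2, 52.4 and 60.6 in APP-KI (log2 fold change -1.59, SE 0.23, adjusted p = 0.00134). The collagen, laminin and proteoglycan list held 7 higher (16.3%) and 4 lower (9.30%) of 43, near the 13% and 9.7% of all genes. Its median was -0.42.

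Of 33 metalloproteinases and inhibitors 9 were higher and 5 lower, the latter 3 without WT replicate 1 or WT replicate 2. Adamts1, a secreted protease of proteoglycans, was at 117, 44.8 and 30.9 in WT and 341, 332 and 370.2 in APP-KI (log2 fold change 2.65, SE 0.38, adjusted p = 0.00116), Timp2, an inhibitor, at 446, 472 and 434 in WT and 998, 1084 and 1700.2 in APP-KI (log2 fold change 1.44, SE 0.19, adjusted p = 0.000746), and Mmp28 at 12.2, 6.49 and 12 in WT and 1.60, 0.954 and 0.708 in APP-KI (log2 fold change -2.40, SE 0.45, adjusted p = 0.00490). Tetraspanins included Cd63, a protein of late endosomes and exosomes, which rose from 55.7, 57.9 and 54.1 to 242, 210.2 and 262 (log2 fold change 2.06, SE 0.12, adjusted p = 1.61e-05), and Tspan18, which fell from 125, 109.6 and 90.6 to 37.7, 25.3 and 32.5 (log2 fold change -1.74, SE 0.19, adjusted p = 0.000269). Of 23 integrins 5 were higher and 2 lower. Itgax, the αX chain of complement receptor 4, was at 70.4, 65.2 and 45.5 in WT and 1024, 1435 and 2951 in APP-KI (log2 fold change 4.76, SE 0.33, adjusted p = 3.03e-05), and Itga9 at 179, 149 and 178 in WT and 89.1, 72.4 and 77.4 in APP-KI (log2 fold change -1.07, SE 0.13, adjusted p = 0.000533).

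Single motor proteins and potassium channels changed in both directions. Of 56 myosins and kinesins 14 were higher and 5 lower, with 9 higher without WT replicate 3 or APP-KI replicate 2. Myo1e, a membrane-linked myosin of endocytosis, was at 73.5, 69.8 and 63.2 in WT and 559.5, 651 and 876 in APP-KI (log2 fold change 3.29, SE 0.16, adjusted p = 1.11e-05), and Kif1a, a kinesin best known from axons, at 11.2, 15.6 and 8.29 in WT and 114, 145 and 285 in APP-KI (log2 fold change 3.77, SE 0.33, adjusted p = 9.22e-05). Myo18b fell from 418, 306 and 384 to 138, 141 and 105 (log2 fold change -1.52, SE 0.16, adjusted p = 0.000228). Kcnj2, which encodes the inward rectifier Kir2.1 that sets the resting potential, was at 95.4, 83.98 and 62.7 in WT and 424, 519.7 and 621 in APP-KI (log2 fold change 2.68, SE 0.18, adjusted p = 3.03e-05), and Kcnk9, a leak channel, at 5.50, 5.08 and 1.96 in WT and 54.6, 92.9 and 163 in APP-KI (log2 fold change 4.28, SE 0.43, adjusted p = 0.000209). Of 33 potassium channel genes 6 were higher (18.2%) and 4 lower (12.1%), against 13% and 9.7% of all genes. Rab7b, a GTPase of late endosomes and the Golgi, was at 9.32, 16.4 and 9.29 in WT and 74.8, 105 and 182 in APP-KI (log2 fold change 3.21, SE 0.33, adjusted p = 0.000226). Over the family of 45 Rab genes 6 were higher (13.3%) and 3 lower (6.67%), near or below the shares of all genes (9 and 0 under median ratio scaling).

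Of the genes that handle iron, the exporter fell and the ferritin heavy chain rose. Slc40a1, ferroportin, the only known iron exporter, fell from 206, 178 and 191 to 73.8, 77.1 and 73.7 (log2 fold change -1.34, SE 0.11, adjusted p = 7.62e-05). Fth1, the heavy chain of the iron store ferritin, rose from 694, 722 and 578 to 1924, 1789 and 2600.4 (log2 fold change 1.65, SE 0.17, adjusted p = 0.000228), and Hmox1, which frees iron from heme, from 46.8, 42.2 and 42.9 to 93.98, 75.2 and 114 (log2 fold change 1.07, SE 0.17, adjusted p = 0.00201). Mt1, a metallothionein, had a log2 fold change of 1.73 (SE 0.25, adjusted p = 0.00117). Over the metal list 10 of 33 were higher and 4 lower. Of 40 antioxidant genes 9 were higher and 2 lower (4 higher without WT replicate 3 and 5 without WT replicate 1), with Prdx4 at 1.95 (SE 0.22, adjusted p = 0.000339) and Txnip, an inhibitor of thioredoxin, at -0.82 (SE 0.11, adjusted p = 0.000856). Of 22 genes of the unfolded protein response 6 were higher and 2 lower, among them Sdf2l1, a cochaperone of the endoplasmic reticulum, at 1.50 (SE 0.15, adjusted p = 0.000194). Of 78 chaperones and heat shock proteins 15 were higher and 8 lower (18 and 4 under median ratio scaling), at a median of 0.01, with 2 lower without WT replicate 2, 3 without WT replicate 3 and 5 without WT replicate 1 or APP-KI replicate 1. Hspa1b, an inducible chaperone and 1 of the 12 genes raised by warm dissociation, fell from 318, 400.4 and 576 to 142, 258 and 198 (log2 fold change -1.11, SE 0.25, adjusted p = 0.0108). Optn, an autophagy receptor, was at 14.98, 11.1 and 11.8 in WT and 40.8, 54.6 and 69.9 in APP-KI (log2 fold change 2.02, SE 0.25, adjusted p = 0.000541), in a list of 36 autophagy genes with 7 higher (4 without WT replicate 1, WT replicate 2 or APP-KI replicate 1) and 2 lower.

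Genes of mitosis were higher in APP-KI, from low levels. Of 29 tested 12 were higher and none lower, and all 29 had a log2 fold change above 0, at a median of 1.24. The count depended on single libraries, with 5 higher without WT replicate 1 or WT replicate 3 and 4 without WT replicate 2 or APP-KI replicate 2. Cdk1 (chr10:69335146-69352938, minus strand, GRCm38), the kinase that drives entry into mitosis, was at 0.836, 1.17 and 1.03 in WT and 7.75, 12.6 and 11.3 in APP-KI (log2 fold change 2.50, SE 0.42, adjusted p = 0.00275). Top2a, the topoisomerase of dividing cells, was at 13.4, 16.4 and 12.5 in WT and 29.8, 40.7 and 31.3 in APP-KI (log2 fold change 1.20, SE 0.23, adjusted p = 0.00592), and Ccnb2, a B-type cyclin, at 0.804, 0.0977 and 0.712 in WT and 3.77, 7.89 and 4.32 in APP-KI (log2 fold change 2.02, SE 0.50, adjusted p = 0.0185), a call that was lost without WT replicate 2 or APP-KI replicate 2. DNA replication genes gave 6 higher and 1 lower of 34, with 2 higher without WT replicate 1, WT replicate 2 or APP-KI replicate 2, and 3 without WT replicate 3. Pcna, the replication clamp, was at 42.1, 24.1 and 24.4 in WT and 32.9, 32.8 and 37.1 in APP-KI (adjusted p = 0.513). Cdkn1a, the cell cycle inhibitor p21, rose as well, from 11.9, 17.97 and 7.87 to 47.6, 36.2 and 43.6 (log2 fold change 1.74, SE 0.30, adjusted p = 0.00298), and Ccnd3, a G1 cyclin, fell from 148, 218 and 249.8 to 87.6, 78.4 and 129 (log2 fold change -1.05, SE 0.22, adjusted p = 0.00904).

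The CCAAT box, common in promoters of cell cycle genes, was found on either strand in 33.9% of all promoter windows, in 40.6% of tested genes with a window and in 19 of 25 mitosis genes with a window. Among the 11 of these mitosis genes that were called higher, 7 held the CCAAT box. The complement of CCAAT reads ATTGG on the strand of the gene. The windows of Cdk1 and Ccnb2 each held 3 copies, in capitals (RefSeq, GRCm38.p6, 5′ to 3′).
Cdk1 (chr10:69352913-69353162, minus strand): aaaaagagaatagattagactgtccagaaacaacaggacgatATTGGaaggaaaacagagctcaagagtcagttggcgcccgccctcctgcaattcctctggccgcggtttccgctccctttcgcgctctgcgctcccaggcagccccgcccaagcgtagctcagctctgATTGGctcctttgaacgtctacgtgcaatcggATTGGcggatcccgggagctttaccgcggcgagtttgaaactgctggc
Ccnb2 (chr9:70421555-70421804, minus strand): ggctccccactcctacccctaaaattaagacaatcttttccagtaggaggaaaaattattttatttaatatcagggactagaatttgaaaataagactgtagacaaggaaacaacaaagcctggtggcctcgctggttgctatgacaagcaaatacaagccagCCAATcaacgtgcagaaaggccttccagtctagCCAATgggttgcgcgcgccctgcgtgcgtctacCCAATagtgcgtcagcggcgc

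In the nucleus, changes were smaller and many depended on the scaling. Of 42 microglial and myeloid transcription factors 5 were higher (11.9%) and 10 lower (23.8%), against 13% and 9.7% of all genes. Under median ratio scaling 6 were higher and 5 lower. The lower count was also 5 without WT replicate 1 or WT replicate 2, and 6 without APP-KI replicate 2. Sall1, a factor of microglial identity, fell from 1504, 1443 and 1373 to 858, 975 and 927 (log2 fold change -0.65, SE 0.12, adjusted p = 0.00541), Cebpd from 73.01, 86.6 and 76.1 to 40.6, 35.4 and 34.9 (log2 fold change -1.07, SE 0.15, adjusted p = 0.00100), and Irf8 rose from 609, 603 and 632 to 873, 969.9 and 1005 (log2 fold change 0.62, SE 0.11, adjusted p = 0.00439). Among immediate early genes Jun, also 1 of the 12 genes raised by warm dissociation, fell from 1706, 1271 and 1104 to 807, 695 and 691 (log2 fold change -0.87, SE 0.17, adjusted p = 0.00587) and Maff rose from 10.2, 5.76 and 7.01 to 34.9, 33.9 and 52.1 (log2 fold change 2.26, SE 0.30, adjusted p = 0.000763). Zinc finger protein genes numbered 331, of which 10 were higher and 41 lower at a median of -0.46. Under median ratio scaling 11 were higher and 14 lower at a median of -0.32, still below the -0.03 of all genes, and the lower count ran from 12 to 27 without WT replicate 1 (16), WT replicate 2 (12), WT replicate 3 (15), APP-KI replicate 1 (24) or APP-KI replicate 2 (27). The higher count was 4 to 6 without any 1 library. Chromatin-modifying enzymes gave 3 higher and 15 lower of 73, and 5 and 4 under median ratio scaling. Without WT replicate 1 or WT replicate 3 the lower count was 4, without APP-KI replicate 2 it was 6, and without WT replicate 2 it was 8. Kdm6b, a histone H3K27 demethylase, fell from 233, 238 and 172 to 100.3, 99.7 and 111 (log2 fold change -1.03, SE 0.14, adjusted p = 0.00105).

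Among the 15 largest rises and falls outside the study's lists, several belong to no family above. Ctnna3, an α-catenin of cell junctions, was at 0.675, 0.195 and 0.142 in WT and 54.7, 103 and 168 in APP-KI (log2 fold change 6.24, SE 0.43, adjusted p = 3.03e-05). Trpm1, a cation channel known from melanocytes and retina, was at 0.611, 0.244 and 0.178 in WT and 31.7, 44.1 and 60.6 in APP-KI (log2 fold change 5.08, SE 0.39, adjusted p = 5.42e-05). Both were under 1 scaled unit in every WT library and over 30 in every APP-KI library. Etl4 was at 14.4, 8.89 and 8.65 in WT and 307, 324 and 414 in APP-KI (log2 fold change 4.93, SE 0.21, adjusted p = 4.02e-06), Lox, the enzyme that crosslinks collagen, at 1.42, 0.342 and 1.39 in WT and 31.7, 85.8 and 63.3 in APP-KI (log2 fold change 4.84, SE 0.44, adjusted p = 0.000124), and Lgi2 at 3.34, 1.56 and 2.17 in WT and 35.6, 172 and 159 in APP-KI (log2 fold change 4.94, SE 0.54, adjusted p = 0.000297). Of the falls, Slco4a1, an organic anion transporter, was at 66.6, 78.6 and 81.8 in WT and 14.5, 16.4 and 10.8 in APP-KI (log2 fold change -2.38, SE 0.21, adjusted p = 9.22e-05), Bank1, a signalling scaffold known from B cells, at 95.7, 85.1 and 96.9 in WT and 27.9, 20.3 and 9.98 in APP-KI (log2 fold change -2.30, SE 0.31, adjusted p = 0.000821), and Rasgrf2, an exchange factor for Ras, at 18.4, 23 and 25.8 in WT and 2.90, 1.95 and 4.09 in APP-KI (log2 fold change -2.58, SE 0.36, adjusted p = 0.00104). Mycl, a member of the Myc family, was at 16.8, 36.03 and 22.2 in WT and 1.19, 5.64 and 5.82 in APP-KI (log2 fold change -2.42, SE 0.50, adjusted p = 0.00784).

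WT and APP-KI mice were also sequenced as all sorted microglia, 3 libraries each, not selected on C3aR, and the 2 sets share no library. By the study's methods, these mice were littermates of a cross with C3aR-KO mice and not of the Td-tomato reporter cross. Sort and mouse line can therefore not be told apart in this comparison. Y-linked genes were also spread unevenly over genotype among the all sorted mice. By replicate number, Eif2s3y read 30.06, 0 and 0 for WT, against 0, 47 and 41.34 for APP-KI. Uty and Ddx3y were split in the same way, whereas none of these genes exceeded 0.0356 in any C3aR-positive library. The part of sex in the difference between sorts was not tested. In all sorted cells, 1283 of the 1602 genes higher and 985 of the 1195 lower in C3aR-positive cells lay on the same side of 0, and 47.9% of all tested genes lay above 0. The genotype effect differed between the 2 sorts for 0 of 12592 genes (0%) by the limma interaction test, with 836 genes at an unadjusted p under 0.05 larger in C3aR-positive cells and 644 smaller, and edgeR also called 0 (1556 at an unadjusted p under 0.05). The absence of calls, with 3 libraries in each group, does not show that the genotype effects were equal in the 2 sorts. List medians are therefore set side by side without a call. The cytosolic ribosomal proteins were at 1.19 in C3aR-positive and 0.60 in all sorted cells, and cholesterol synthesis was at 1.15 and 0.59. Mitosis was at 1.24 and -0.06, interferon-stimulated genes at 1.09 and 0.10, lysosomal hydrolases at 0.72 and -0.12, and the matrix list at -0.42 and 0.57. Of single genes, Lamp1 had a log2 fold change of -0.19 in all sorted cells (interaction adjusted p = 0.394), Il1b -0.80 (0.394), Gpr84 -0.20 (0.394), Cdk1 0.09 (0.394) and C3ar1 -0.20 (0.394). Atp6v0d2 (4.99), Igf1 (3.19), Csf1 (4.66), Plxna2 (4.69) and Sema4b (-2.88) had values near those in the C3aR-positive cells. The all sorted APP-KI libraries listed 8076, 107 and 5165 genes at 0, a spread not seen in the C3aR-positive libraries, where 5298 to 6438 were at 0. All sorted libraries were also deeper, at 67797819 to 76608464 reads in WT and 44418969 to 55722037 in APP-KI. With a term for the run of library numbers, the limma interaction test called 0 genes, with 902 at an unadjusted p under 0.05 against 1480 without it.

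**Figure D5:**
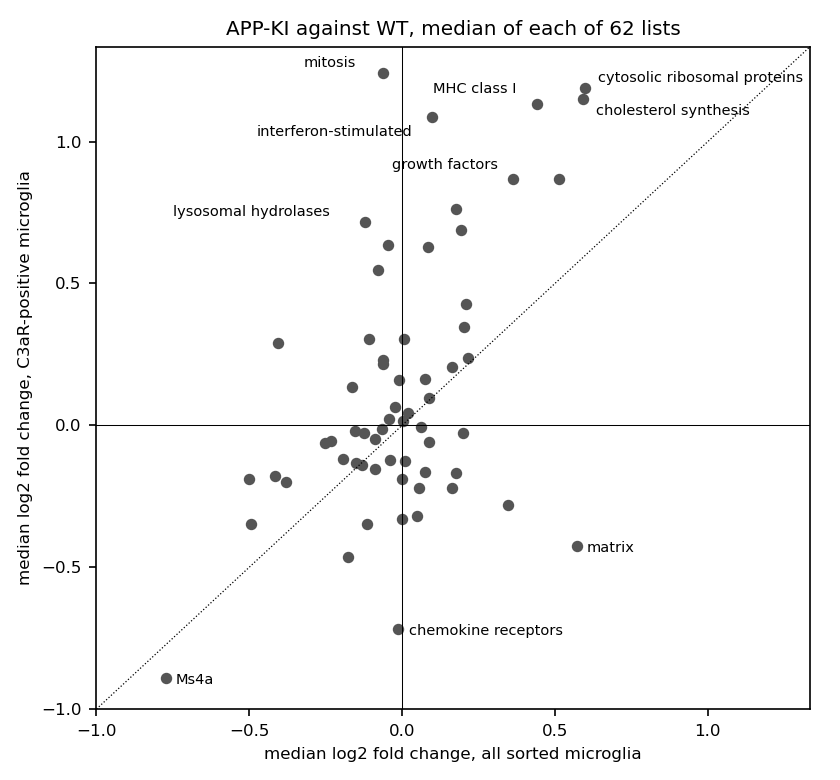
Median log2 fold change of each of 62 lists (points), APP-KI against WT, in all sorted microglia (horizontal axis) and in C3aR-positive microglia (vertical axis), with a dotted line of equality. Mitosis (-0.06 and 1.24), interferon-stimulated genes (0.10 and 1.09) and lysosomal hydrolases (-0.12 and 0.72) lie farthest above the line, and no single gene passed the test of the difference. The sorts also differ in mouse line and in how Y-linked genes were spread over genotype.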

How the data were processed

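RNA of sorted microglia was made into libraries with a Takara SMARTer total RNA Pico v3 kit, which carries unique molecular identifiers, and sequenced on a NovaSeq. Per the submitters' processing notes the authors used cutadapt, TopHat2, featureCounts and DESeq2 on mm10, and whether reads were collapsed by identifier or counted by strand is not given in the sources used here. The values deposited by the authors are named FPKM but are a signal, the read count of a gene divided by the 75th percentile of the 21326 genes in that library and not by its length. Whole reads were recovered for 100% of values (tolerance 0.1 read) in all 20 libraries. The edgeR count test on these reads called 1770 genes higher and 659 lower. The design had assumed normalized values, and its log-scale test was kept.

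Values were multiplied by 35.2, a pseudocount of 1 was added, and genes with a mean of at least 1 over the fitted libraries were tested with limma 3.58.1 (R 4.3.3, mean-variance trend, Benjamini-Hochberg, adjusted p under 0.05). Only the 6 C3aR-positive libraries entered the main fit, and 12 libraries the test of the difference between sorts. The fit was also run on simulated counts with the same dispersion for every gene and far fewer changed genes than were called here. That run therefore does not measure the error of the calls in these data. Replicates differed by more than counting noise (chi-square per degree of freedom 49.1 to 76.5). Alternatives were other pseudocounts, filters, scalings, variance models and count tests (edgeR 4.0.16, DESeq2 1.42.0), a replicate block, a stricter threshold and each library left out. Gene lists are described by counts and medians, with no test over a list. The members and lists were chosen with earlier results of these data known. Named genes are, for each list, up to 2 largest rises and 2 largest falls among called genes without overlap, the core genes of the list, and the 15 largest rises and falls outside the study's lists, of which a part is printed. App and C3ar1 are given as the changed and the sorted gene. Gene positions and lengths came from GENCODE M21 (12160 of 12315 tested genes matched, 12138 with a length), promoters from RefSeq on GRCm38.p6. Python 3.11.15, numpy 2.4.6 and pandas 2.3.3 were used for the other steps. Counting limits cover counting error only.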

Additional observations from a re-analysis of the deposited data

How the results depend on the processing

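The count of genes higher in APP-KI stayed within 1.5 times of 1602 under every alternative but 1, an adjusted p under 0.0005, which left 230. Without 1 library it ran from 1169 to 1494. The count of genes lower was less stable. It was 605 under median ratio scaling, 659 with edgeR and 37 at an adjusted p under 0.0005, and ran from 608 to 1034 without 1 library, against 1195. No filter gave 1262 higher and 923 lower of 17768 genes tested, DESeq2 gave 2225 and 948, and quantile normalization 1622 and 1287. Scalings that differ in where they set the bulk of genes thus gave different numbers of falls, and the cause was not tested. The genotype effect differed between the sorts for 0 genes except without APP-KI replicate 6 of the all sorted cells, where 2 were smaller in C3aR-positive cells (range 0 to 2 over libraries left out). With the replicate number as a block 1387 genes were higher and 853 lower. Same-numbered samples did not deviate together (Pearson's r across genes 0.02, 0.04 and -0.01, against -0.05 to 0.02 for other-numbered samples). With 3 libraries in a group, this cannot exclude that the numbers pair the samples. Among called genes named with values, Cd74, Hspa1b and Ifit3 did not pass with no filter, and Ccnd3, Cd74, Eprs, Hspa1b, P2ry13 and Sars did not in limma without a trend. Phgdh, not called, ran from -0.58 without APP-KI replicate 2 to 0.65 without APP-KI replicate 3. Fits without 1 library leave 2 samples in an arm. Depth limits genes near 0, where 1 read was worth 0.0321 to 0.0786 scaled units.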

Other observations

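Several families outside the accounts above held calls in both directions, as did all genes tested (13% higher and 9.7% lower). Of 34 amino acid transporters 10 were higher and 7 lower, with Slc43a3 at a log2 fold change of 2.47 (SE 0.50, adjusted p = 0.00740). Of 67 regulators of G proteins and small GTPases 10 were higher (14.9%) and 11 lower (16.4%), or 11 and 8 under median ratio scaling. Rgs16 was at 2.92 (SE 0.51, adjusted p = 0.00346) and Dock10, a guanine nucleotide exchange factor, at -0.98 (SE 0.13, adjusted p = 0.000810). Of 17 Fc receptor genes 4 were higher and 4 lower. Fcer1g, the signalling γ chain, was at 1.11 (SE 0.11, adjusted p = 0.000195) and Fcgrt, the neonatal Fc receptor, at -0.83 (SE 0.19, adjusted p = 0.0115), so the shared chain and a receptor that recycles antibody moved in opposite directions. In the Wnt pathway 5 of 23 genes were higher and 2 lower, with the receptor Fzd5 at 3.18, 2.83 and 4.02 in WT and 17.6, 15.4 and 18.8 in APP-KI (log2 fold change 2.08, SE 0.34, adjusted p = 0.00232) and the transcription factor Tcf7l2 at 78.8, 76.6 and 68.2 in WT and 37.8, 42.4 and 35.9 in APP-KI (log2 fold change -0.93, SE 0.15, adjusted p = 0.00193). Of 27 genes of the TNF superfamily and its receptors 2 were higher and 1 lower, Tnfrsf1b, the second TNF receptor, from 422, 454 and 429 to 258, 254 and 309.5 (log2 fold change -0.67, SE 0.12, adjusted p = 0.00317). Of 24 p53 targets 6 were higher and 1 lower, with Perp at 2.52 (SE 0.43, adjusted p = 0.00302). Splicing factors (2 of 65 higher, 5 lower, or 2 and 1 under median ratio scaling), histones (1 of 12 higher, none lower in the limma test), sorting nexins (3 of 34 higher, 2 lower) and phosphatases of MAP kinases (2 of 19 higher, 1 lower) had shares at or below those of all genes for rises. The 5 splicing factors called lower became 9 if APP-KI replicate 2 was left out, 2 if WT replicate 1 or APP-KI replicate 1 was, and 1 if WT replicate 2 or WT replicate 3 was. These counts were chosen for mention after the values were seen.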
